A study of Mus musculus with 272 samples.

Results

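The clustered histone genes were taken as every protein-coding gene of GENCODE M21 (mm10 build) whose symbol begins with Hist1h, Hist2h, Hist3h or Hist4h. The rule found 67 of the 21938 protein-coding genes on the assembled chromosomes. Of these, 54 lie on chromosome 13, 10 on chromosome 3, 2 on chromosome 11 and 1 on chromosome 6. By class, 6 encode the linker histone H1, 18 encode H2A, 18 encode H2B, 12 encode H3 and 13 encode H4.

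The series profiled CRISPR-Cas9 repair outcomes in mouse muscle stem cells (MuSCs). Besides input DNA controls, 8 of its 272 samples describe their chromatin. GFP+ MuSCs were sorted from hindlimb muscle of Pax7Cas9 mice, in which Cre driven from the Pax7 gene switches on Cas9 and EGFP. The labels of these 8 libraries name skeletal muscle as the tissue and give no guide, virus, age or strain. ATAC-seq, which reads out accessible DNA, and ChIP-seq for H3K4me3, H3K27ac and H3K27me3 had 2 libraries each. The labels name an input library for H3K27me3 and H3K4me3 and another for H3K27ac, so none is named for a single replicate. No treated and control groups exist here, so the histone genes were set against all protein-coding genes in the same libraries.

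Clustered histone genes supply most of the histones that package newly made DNA. They are crowded in a few chromosomal clusters, mostly lack introns, and are transcribed mainly during DNA synthesis under NPAT, a factor that gathers on them in the histone locus body. Their mRNAs typically end in a conserved stem-loop, bound by SLBP, instead of a poly(A) tail. H3K4me3 marks the starts of active or poised genes, H3K27ac marks active promoters and enhancers, and H3K27me3 marks genes held by Polycomb.

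Intervals between an H2A and an H2B gene are shown first, because both genes of such a pair start from the same short interval. Capitals mark TATAAA (the TATA box), CCAAT (the box bound by NF-Y), ATTTGCAT (the octamer bound by OCT1) and AAACACA (the H1 box) on either strand. Each run stops short of the start sites of both genes. The first interval lay under the strongest ATAC-seq peak of all members, and the second under a strong ATAC-seq peak and an H3K4me3 peak. H3K27ac peaks covered the second interval in replicate 2 but only its ends in replicate 1. The third interval belongs to a pair of testis genes with no peak over it.
Hist1h2ah/Hist1h2bk, chr13:22035644-22035820, plus strand: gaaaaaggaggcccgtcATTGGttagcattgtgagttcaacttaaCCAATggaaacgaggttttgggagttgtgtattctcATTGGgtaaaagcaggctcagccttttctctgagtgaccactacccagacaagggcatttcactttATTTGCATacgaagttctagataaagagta
Hist1h2ac/Hist1h2bc, chr13:23683960-23684198, plus strand: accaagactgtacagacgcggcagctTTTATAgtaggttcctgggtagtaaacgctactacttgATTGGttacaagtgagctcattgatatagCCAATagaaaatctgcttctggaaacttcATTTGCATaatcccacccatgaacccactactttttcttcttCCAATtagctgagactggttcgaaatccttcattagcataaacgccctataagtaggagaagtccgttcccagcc
Hist1h2ba/Hist1h2aa, chr13:23934157-23934436, plus strand: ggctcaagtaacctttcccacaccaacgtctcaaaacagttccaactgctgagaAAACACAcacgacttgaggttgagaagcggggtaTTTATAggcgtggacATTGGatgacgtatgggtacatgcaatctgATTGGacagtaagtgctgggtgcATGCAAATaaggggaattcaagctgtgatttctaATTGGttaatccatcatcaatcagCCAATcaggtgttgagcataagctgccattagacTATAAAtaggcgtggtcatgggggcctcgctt

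The next runs are 150 bases upstream of single genes, printed 5′ to 3′ on the strand of the gene. Hist4h4 and Hist1h4h had the highest H3K4me3 folds of all members. Hist1h1c, a somatic H1 gene, carried every active feature, whereas Hist1h1t, the testis H1 gene, had no listed peak.
Hist4h4, chr6:136804432-136804581, minus strand: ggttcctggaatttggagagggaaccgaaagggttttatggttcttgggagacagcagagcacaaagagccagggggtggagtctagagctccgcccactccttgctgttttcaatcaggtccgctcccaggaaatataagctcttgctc
Hist1h4h, chr13:23530894-23531043, plus strand: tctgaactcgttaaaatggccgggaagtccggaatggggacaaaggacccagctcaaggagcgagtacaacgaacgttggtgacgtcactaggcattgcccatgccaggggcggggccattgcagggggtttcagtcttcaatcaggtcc
Hist1h1c, chr13:23738657-23738806, plus strand: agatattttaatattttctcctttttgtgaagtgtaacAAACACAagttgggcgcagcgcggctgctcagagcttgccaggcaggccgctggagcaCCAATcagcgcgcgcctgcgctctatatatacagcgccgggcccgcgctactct
Hist1h1t, chr13:23695661-23695810, plus strand: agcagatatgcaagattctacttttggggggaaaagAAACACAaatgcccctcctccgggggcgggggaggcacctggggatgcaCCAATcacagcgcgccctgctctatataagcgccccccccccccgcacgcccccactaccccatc

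The deposited lists hold peaks called in each library separately, with a fold enrichment at the summit and no read numbers, so the depth of each library is unknown. A gene was called for a feature where at least 1 base of a listed peak lay within 1 kb of an annotated start site, and its value was the fold of the strongest such peak. The strongest peak could differ between the replicates. The lists held 140937 and 94574 peaks for ATAC-seq in replicates 1 and 2, and 20519 and 18006 for H3K4me3. They held 24217 and 18589 H3K27ac peaks, and the H3K27me3 lists were the shortest with 6080 and 10485. No source used here says that the replicates came from separate mice, so their spread may be technical. ATAC-seq, H3K4me3 and H3K27ac were all called in both replicates at 11 of 13 MuSC markers, against 1 of 10 endothelial, 0 of 9 blood, 3 of 10 fibro-adipogenic and 2 of 10 myofibre markers. ATAC-seq alone was called at 12 of the MuSC markers and at 8, 5, 6 and 8 of the markers of the other types in that order, and the part of other cells in the values below was not tested.

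The clustered histone genes were mostly either fully marked as active or without any listed peak, as were most protein-coding genes (45% and 30.1%). An ATAC-seq promoter peak was called in both replicates at 39 of the 67 members (58.2%), against 64.0% of all protein-coding genes. H3K4me3 was also called at 39 members (58.2%), against 59.6% of all genes. H3K27ac was called at 36 members (53.7%), against 45.4%. All 3 of these active features were called in both replicates at 36 members (53.7%), against 45% of all genes. Each of these shares was thus within 10 percentage points of its background. H3K27me3 was called at 1 member (1.49%), against 4.11% of all genes.

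Of the remaining members, 3 had 2 active features in both replicates and 28 had 0. No peak of any of the 8 lists was found at 24 members (35.8%), against 30.1% of all genes. In single libraries the members called numbered 41 and 39 in the ATAC-seq replicates, the same in those of H3K4me3, and 37 and 36 in those of H3K27ac. The replicates therefore differed in at most 2 members per feature.

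**Figure D1:**
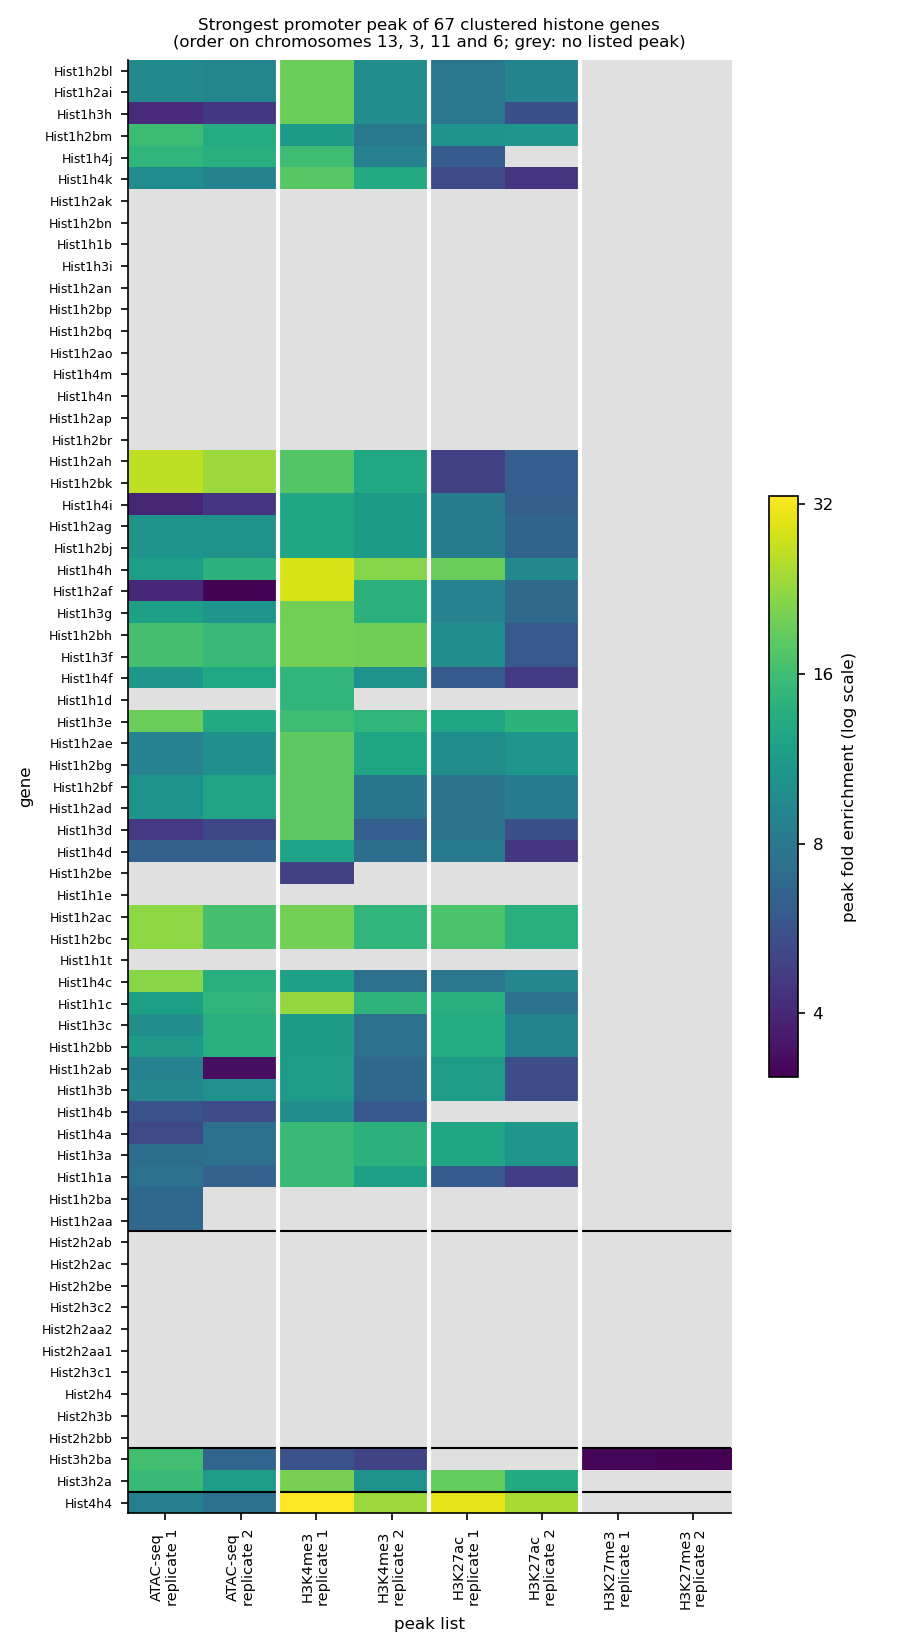
Fold enrichment of the strongest peak within 1 kb of a start site (colour) for each of the 67 clustered histone genes in each of the 8 peak lists, in genomic order. Cells without colour have no listed peak; the 12 members from Hist1h2ak to Hist1h2br and the 10 members on chromosome 3 have none in all 8 lists.

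The members without a listed peak lay side by side. On chromosome 13, no peak of any list lay between bases 21751113 and 21855631, a stretch of 105 kb with 12 members: Hist1h2ak, Hist1h2bn, Hist1h1b, Hist1h3i, Hist1h2an, Hist1h2bp, Hist1h2bq, Hist1h2ao, Hist1h4m, Hist1h4n, Hist1h2ap and Hist1h2br. On chromosome 3, none lay between bases 96189889 and 96300669, a stretch of 111 kb with all 10 Hist2 members: Hist2h2ab, Hist2h2ac, Hist2h2be, Hist2h3c2, Hist2h2aa2, Hist2h2aa1, Hist2h3c1, Hist2h4, Hist2h3b and Hist2h2bb. The start sites of Bola1 and Fcgr1 lay in the same stretch. The third stretch, of 62.5 kb from base 23620734 of chromosome 13, held the start sites of Hist1h1e, without a listed peak, and of Hist1h2be, reached only by an H3K4me3 peak of replicate 1 (fold 4.83). The remaining member without a listed peak was Hist1h1t, in a gap of 11.2 kb. A stretch without chromatin signal and a stretch whose reads or peaks were removed cannot be told apart from these lists, so for the members in the 3 long stretches only the lack of a listed peak is given.

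Empty stretches that hold CpG-rich promoters also occurred away from the histone genes. Among genes with an observed to expected CpG ratio of at least 0.6 around the start site and at least 90% unique sequence, 263 of 9910 (2.65%) had no listed peak, whereas 9 of the 34 such members (26.5%) had none. Of those 263 genes, 78 lay in 18 gaps of at least 50 kb that held 3 or more of them, and 8 of the 78 were members. H2afx, which encodes the replacement histone that is phosphorylated at DNA breaks, lay in a peak-free gap on chromosome 9 with 9 start sites.

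Because reads of low mapping quality were removed before peak calling, the share of 150-base words that occur at a single place in the genome was computed within 1 kb of each start site. Its median was 92.5% over the members, while at the median gene every word was unique, and 30 members (44.8%) but 6.71% of all genes were under 90%. The 8 members under 50% were Hist1h2ap, Hist1h2br, Hist1h2ao, Hist1h2bq, Hist1h4m, Hist1h4n, Hist2h3c1 and Hist2h3c2, and none of them had a listed peak, as was the case at 97.3% of all genes under 50%. Hist1h2ap, Hist1h2br, Hist1h2ao and Hist1h2bq had no unique word, and the intervals of these 2 head-to-head pairs were identical over 235 bases when read on opposite strands. However, 10 of the 24 members without a listed peak were at least 90% unique, among them Hist1h1b, Hist1h1e, Hist2h2ab, Hist2h2ac, Hist2h2be and Hist2h4, at which every word was unique. Conversely, 16 of the 43 members with a peak were under 90%, down to 77.5% at Hist1h2ah and Hist1h2bk. The part of read mapping in the missing peaks was not tested.

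**Figure D2:**
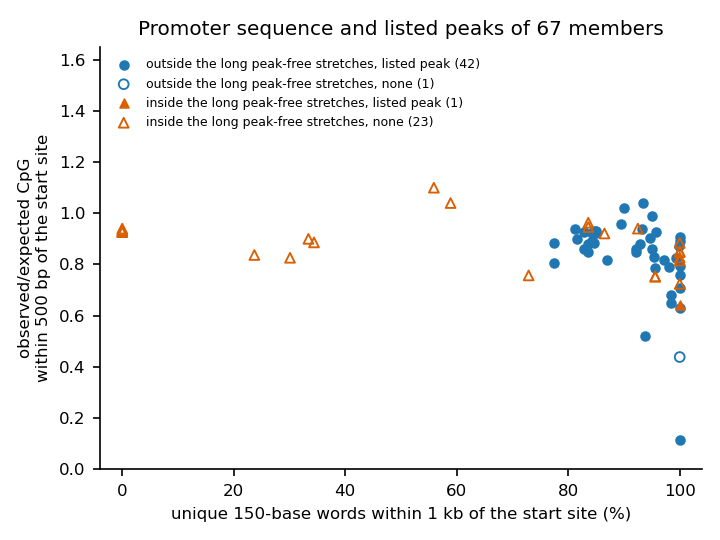
Each of the 67 members by the share of unique 150-base words within 1 kb of its start site (percent) and by its observed to expected CpG ratio, with symbols that separate members with and without a listed peak. All 8 members under 50% unique lack a listed peak, but members without one are also found at the right edge, where every word is unique.

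Of the 43 members outside the 3 long stretches, 39 (90.7%) had ATAC-seq and 39 (90.7%) H3K4me3 peaks in both replicates, and 36 (83.7%) had H3K27ac and thereby all 3 active features. This restriction was made after the lists were seen and removes members for lacking peaks, so these shares are descriptions only and are not comparable with those of other gene sets. Crowding also bears on the calls, since 1 peak can reach several genes: the 67 promoter windows merge into 38 regions. Among 2736 other genes with another protein-coding start site within 1 kb, ATAC-seq was called at 90.4%, H3K4me3 at 90.1%, H3K27ac at 82.5% and all 3 at 82.3%. Of the 28 members with such a neighbour, 15 (53.6%) had all 3.

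**Figure D3:**
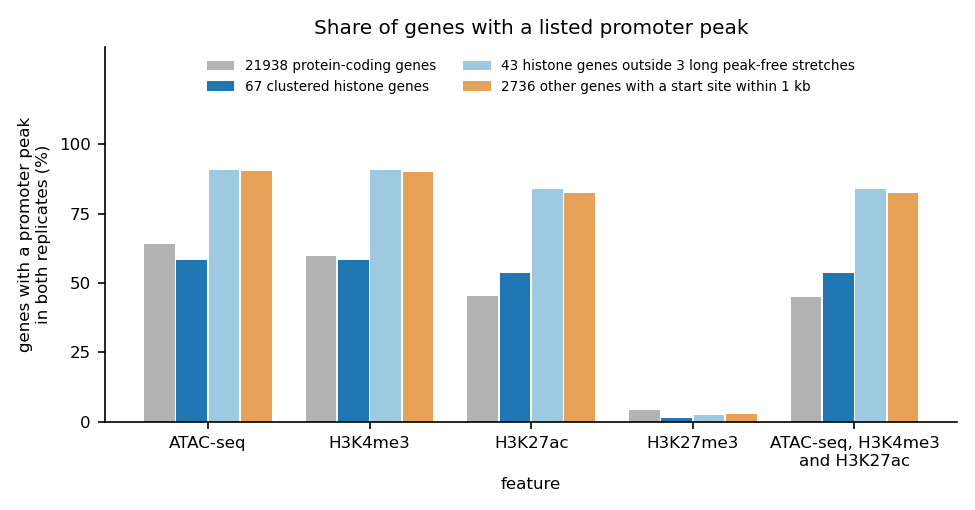
Percent of genes with a promoter peak in both replicates for each feature and for the 3 active features together, in the 67 clustered histone genes, the 43 of them outside the long peak-free stretches, all protein-coding genes, and 2736 other genes with a start site within 1 kb. The 67 members stand within 10 points of all protein-coding genes. The 43 were kept after members in peak-free stretches were removed, so their bars are not comparable with those of the other sets.

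The highest ATAC-seq folds by the lower replicate were found at 2 of the 12 head-to-head pairs of an H2A and an H2B gene. Hist1h2ah and Hist1h2bk, which start 302 bp apart, shared an ATAC-seq peak with a fold of 26.4 in replicate 1 and 23.1 in replicate 2. Hist1h2ac and Hist1h2bc, 251 bp apart, shared a peak with a fold of 22.1 and 16.5. Both pairs stood above the medians of 13.2 and 12.2 over all genes with a peak, whereas 4 other H2A and H2B pairs with a peak over the interval had folds of 8.81 to 10.5 and 9.15 to 12.3. The unpaired H4 gene Hist1h4c reached 21.7 and 13.8. The median over the called members was 10.4 in either replicate, and 12 of 41 and 17 of 39 members exceeded the middle of all called genes. The members ranged from 3.93, at Hist1h4i, to 26.4 in replicate 1 and from 3.12, at Hist1h2af, to 23.1 in replicate 2.

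The histone marks peaked at other members, ranked here by the lower replicate. Hist4h4, a lone H4 gene on chromosome 6 (bases 136801553 to 136804415), had H3K4me3 folds of 33.1 and 23.2 and H3K27ac folds of 30.2 and 24.2, the highest of all members in these 4 libraries. Its ATAC-seq folds were 8.62 and 7.34, below the member median. Hist1h4h, another H4 gene, followed in H3K4me3 with 28.8 and 21.5. Its H3K27ac folds were 19.2 and 9.33 and its ATAC-seq folds 11.7 and 14.1, so H3K27ac differed between its replicates by more than the other features did. That ATAC-seq peak lay beyond the end of Hist1h4h, and the one over its start site had 7.04 and 5.45. Hist1h2bh (H2B) and Hist1h3f (H3), the only head-to-head pair of these classes, came next by this rank in H3K4me3 with a shared 20.2 and 19.7. In replicate 1, Hist1h2af (28.8), Hist1h1c (22.8) and Hist3h2a (20.3) were higher. The 28.8 at Hist1h2af was the peak of Hist1h4h, which reached its window from upstream. The replicate 1 peak over the start site of Hist1h2af had a fold of 19.9. Hist1h2ac and Hist1h2bc came next by this rank in H3K27ac with a shared 16.9 and 13.7, although Hist1h4h (19.2) and Hist3h2a (18.8) were higher in replicate 1 and Hist1h3e (14.3) in replicate 2.

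At the typical called member the marks were listed at lower folds than at the typical called gene. The median H3K4me3 fold was 17.6 and 11.2 over the members, against 23.9 and 17.6 over all genes with a peak, and 3 of 41 and 4 of 39 members exceeded the middle of all called genes. The median H3K27ac fold was 8.81 and 7.80, against 13.9 and 12, with 5 of 37 and 5 of 36 members above the middle. Library differences were shared with other genes: H3K4me3 was higher in replicate 1 at 39 of 39 members, with a median ratio of 1.43, and the median ratio over all genes was 1.36. For ATAC-seq and H3K27ac the ratios were 1.04 and 1.26 over the members and 1.07 and 1.23 over all genes. The order of the members was similar in the 2 replicates, with a Spearman rho of 0.885 over 39 members for ATAC-seq, 0.701 over 39 for H3K4me3 and 0.658 over 36 for H3K27ac. Many of these points share a peak, so rho is a description.

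**Figure D4:**
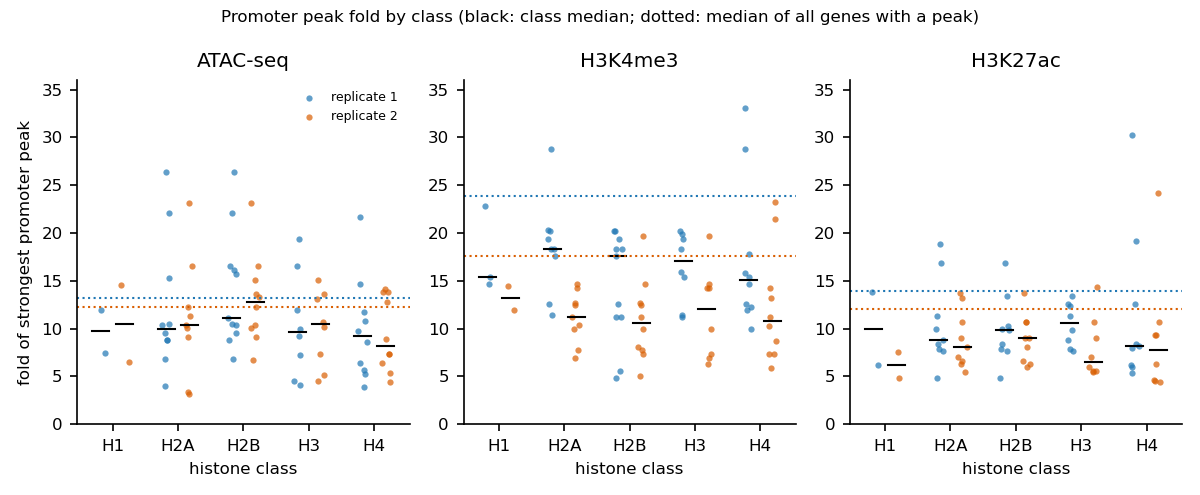
Fold of the strongest promoter peak for each called member by histone class, in both replicates of ATAC-seq, H3K4me3 and H3K27ac, with the medians over all genes with a peak for comparison. Most H3K4me3 and H3K27ac points lie under those medians, and the H4 gene Hist4h4 reaches 33.1 and 30.2.

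By class, all 3 active features were called at 2 of 6 H1, 9 of 18 H2A, 9 of 18 H2B, 8 of 12 H3 and 8 of 13 H4 genes. Outside the long stretches these counts were 2 of 4, 9 of 10, 9 of 11, 8 of 8 and 8 of 10. Class medians of the ATAC-seq fold spanned 9.18 in H4 to 11.1 in H2B in replicate 1 and 8.14 in H4 to 12.8 in H2B in replicate 2. Single genes spread far more widely than the class medians, as H2A genes ran from 4.03 to 26.4 and H4 genes from 3.93 to 21.7 in replicate 1.

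Genes for the same protein did not all have the same listed promoter peaks. All 13 H4 genes encode 1 identical protein, and 8 of them had all 3 active features while Hist1h4m, Hist1h4n and Hist2h4 had no listed peak. The other 2 H4 genes carried ATAC-seq and H3K4me3 in both replicates. At Hist1h4j the ATAC-seq folds were 14.7 and 13.8 and the H3K4me3 folds 15.8 and 8.70, with H3K27ac of 6.13 in replicate 1 and no peak in replicate 2. Those 2 ATAC-seq folds came from different peaks. The peak over the start site had 14.7 and 5.29, and the strongest upstream had 11.3 and 13.8. At Hist1h4b ATAC-seq reached 5.61 and 5.33 and H3K4me3 reached 10.0 and 5.90, with no H3K27ac peak. The largest set of identical H2A proteins counted 9 genes, 6 with all 3 active features and 3 with no listed peak. Every gene of these 2 sets without a listed peak lay in a long stretch, so a different promoter state is not shown for them.

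The H1 genes encode the linker histones that bind where DNA enters and leaves the nucleosome. Hist1h1c had folds of 11.9 and 14.5 in ATAC-seq, 22.8 and 14.4 in H3K4me3 and 13.8 and 7.52 in H3K27ac. Its 2 ATAC-seq folds came from different peaks. The peak over the start site had 11.9 and 9.21, and the next one downstream had 11.4 and 14.5. Hist1h1a had 7.48 and 6.47 in ATAC-seq, 15.4 and 11.9 in H3K4me3 and 6.13 and 4.78 in H3K27ac. These were the 2 H1 genes with every active feature in both replicates. Hist1h1d was reached only by an H3K4me3 peak of replicate 1 (fold 14.7), but its gene model starts 1828 bases before the first coding base. Within 1 kb of that base the ATAC-seq folds were 7.23 and 8.25, the H3K4me3 folds 13 and 10.6 and the H3K27ac folds 7.29 and 6.35. The state of Hist1h1d thus turned on the position used.

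Hist1h2be, an H2B gene, had the only other distant start, 35168 bases from its first coding base. Around that base its ATAC-seq folds were 16.8 and 10.8, its H3K4me3 folds 13.1 and 7.98 and its H3K27ac folds 10.3 and 8.11. With windows at the start site or the first coding base, a choice made once the values were known, 38 members had all 3 active features.

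The germ-line members considered here, Hist1h1t, Hist1h2ba and Hist1h2aa, had no H3K4me3 or H3K27ac peak. Hist1h1t had no listed peak, although every word of its window was unique, and its CpG ratio was 0.438 against a median of 0.882 over the 36 members with all 3 active features. Hist1h2ba and Hist1h2aa, the testis H2B and H2A genes, were reached only by an ATAC-seq peak of 67 bp in replicate 1 with a fold of 6.81. That peak lay inside Hist1h2aa and not over the interval printed above, which holds 2 TATAAA, 4 CCAAT, 1 octamer and 1 H1 box match. Outside the long stretches, these and Hist1h1d were the members without a call in both replicates for any feature.

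Some clustered genes can also give polyadenylated mRNA, among them Hist1h1c and Hist1h2bc, described above. Hist3h2a, an H2A gene on chromosome 11 (bases 58954685 to 58956830), had folds of 15.3 and 11.3 in ATAC-seq, 20.3 and 10.4 in H3K4me3 and 18.8 and 13.2 in H3K27ac. All of its active features were therefore called in both replicates. Hist2h2be, the fourth such gene, had no listed peak and lies in the chromosome 3 stretch.

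Hist3h2ba, the H2B neighbour of Hist3h2a (bases 58948920 to 58949533), was the only member with H3K27me3. Its ATAC-seq folds were 16.1 and 6.66 and its H3K4me3 folds 5.56 and 5.01, with no H3K27ac peak. The 2 ATAC-seq folds came from different peaks. The replicate 1 peak that overlapped the one of replicate 2 had a fold of 6.39. The H3K27me3 folds were 3.17 and 3.08, from different peaks that did not overlap. The peak of replicate 1 spanned 99 bp on the upstream side of the start site and that of replicate 2 spanned 177 bp beyond the gene's end, with −log10 q of 0.934 and 0.451. Neither passed a q-value of 0.05, and because the peaks did not overlap, the 2 libraries did not mark the same bases.

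The annotation holds 13 head-to-head pairs with start sites 176 to 660 bp apart, of which 12 join H2A with H2B. ATAC-seq peaks lay over the interval in both replicates at 7 pairs, and the same number had all 3 active features at both genes. The 7 were Hist1h2bl/Hist1h2ai, Hist1h2ah/Hist1h2bk, Hist1h2ag/Hist1h2bj, Hist1h2bh/Hist1h3f, Hist1h2ae/Hist1h2bg, Hist1h2bf/Hist1h2ad and Hist1h2ac/Hist1h2bc. Another 5 pairs lie in the long stretches and had no listed peak, and the testis pair had none over its interval. No pair had all 3 active features at 1 gene only. The promoter windows of paired genes overlap widely, so the same peak usually calls both. This agreement was therefore largely set by the window and says little about the pairs.

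Marks spread upstream of the histone genes more often than at other genes. At 1000 bp upstream of the start site, an H3K4me3 peak covered 37.3% and 20.9% of members in replicates 1 and 2, against 9.29% and 6.23% of all genes. For H3K27ac these shares were 28.4% and 19.4%, against 5.19% and 3.82%. At the start site itself, H3K4me3 covered 58.2% and 53.7% of members and 53.0% and 49.3% of all genes, so the sets were closer there. The H3K4me3 summit lay upstream of the start site at 43.9% and 33.3% of called members, against 12.8% and 12.7% of all called genes. Upstream bases of 1 member are often the promoter or body of the next, and the part of such neighbours was not tested.

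**Figure D5:**
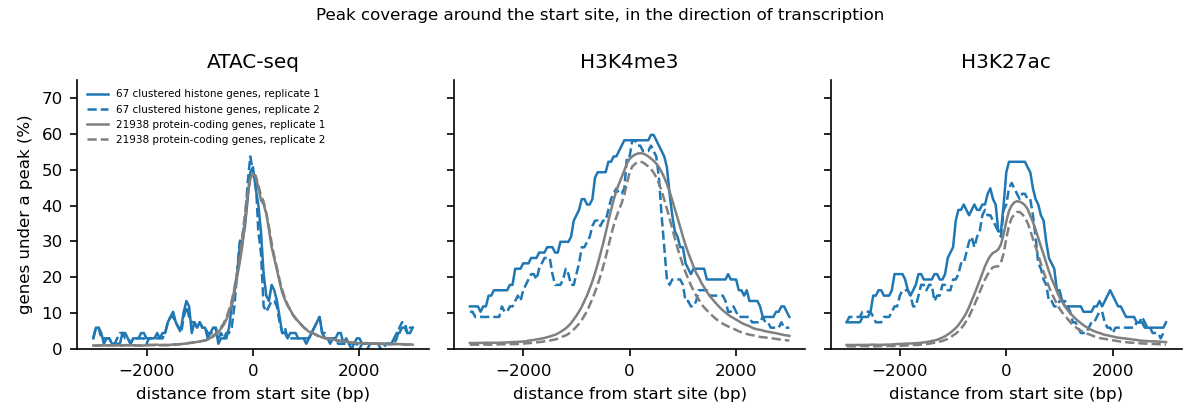
Percent of start sites under a listed peak by distance from the start site (bp, upstream to the left) for the clustered histone genes and all protein-coding genes, in each replicate. H3K4me3 covers 37.3% and 20.9% of members at 1000 bp upstream, against 9.29% and 6.23% of all genes.

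Single peaks ran across several genes. The strongest H3K4me3 peaks of 41 called members were 24 distinct peaks in replicate 1, and those of 39 members were 26 in replicate 2. The widest, of 4598 bp in replicate 1, touched the windows of Hist1h2ae, Hist1h2bg, Hist1h2bf, Hist1h2ad and Hist1h3d with a fold of 18.3. In replicate 2 no peak touched more than 3 members, and the folds of these genes ran from 6.26 to 12.5. The equal H3K4me3 folds of neighbours in replicate 1 are therefore not independent values. Median widths of the H3K4me3 peaks were 2636 and 1512 bp at members and 1620 and 1340.5 bp over all called genes.

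Over the chromosome 13 cluster, from base 21715763 to 23934851, H3K4me3 peaks covered 3.67% ± 0.656 of the bases (SD, n = 2 libraries) and H3K27ac peaks 2.10% ± 0.384. Genome-wide coverage was 0.996% and 0.760% for H3K4me3 and 0.744% and 0.540% for H3K27ac in the 2 libraries. ATAC-seq peaks covered 1.26% ± 0.04 of the cluster, against 0.925% and 0.879% of the genome. Many of these peaks lay away from member promoters. Those at member promoters were 23 of 54 and 33 of 65 for H3K4me3 in replicates 1 and 2. They were 34 of 54 and 34 of 50 for H3K27ac, and 51 of 144 and 44 of 105 for ATAC-seq. H3K27me3 covered 0.381% ± 0.179, against 0.0608% and 0.118%, with 27 and 48 peaks of which 0 lay at a member promoter. Within the 4 blocks where neighbouring members lie under 100 kb apart, H3K27me3 covered 0% of the bases.

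Promoter letters differed by class. RefSeq promoters of GRCm38.p6 were matched to 62 members, and the 250 bases upstream were searched on both strands, with no overlap between motifs required or barred. CCAAT was found in 51 of 62 (82.3%), against 33.8% of 32851 RefSeq promoters, in 18 of 18 H2A and 16 of 16 H2B genes but 3 of 12 H4 genes. ATTTGCAT was found in 13 (21%), against 1.60%, of which 7 were H2A and 6 H2B genes. TATAAA was found in 29 (46.8%), against 12.4%, and AAACACA in 9 (14.5%), against 6.25%, with 5 of the 6 H1 genes among them. TATAAA was present in 45.5% of members with all 3 active features and in 45.5% of those with no listed peak, and CCAAT in 84.8% and 81.8%. For ATTTGCAT these shares were 27.3% (9 of 33) and 9.09% (2 of 22), and for AAACACA 9.09% and 13.6%. Paired genes share bases, so these are not independent counts, and a match is not a bound site.

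The stem-loop sequence was found within 150 bases after the coding end in 62 of 67 members, with the stem arms in capitals below. The most frequent form was found in 38 members and another in 9, and a different one, in 8, was held by H4 genes such as Hist4h4 and Hist1h4h.
Form in 38 members: GGCTCTtttcAGAGCC
Form in 9 members: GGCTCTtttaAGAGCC
Form in 8 members: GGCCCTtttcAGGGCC
It was not matched in Hist2h2be, Hist1h2an, Hist1h2bp, Hist1h2bq and Hist1h2br, all of which lie in the long stretches. The search began at the outermost coding end of each gene model. The longest annotated proteins of Hist1h2bp, Hist1h2bq and Hist1h2br have 138, 134 and 134 residues, against 126 at Hist2h2be. An earlier coding end in these 3 genes would not have been searched, so a lack of the stem-loop is not shown.

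All 18 of 18 listed genes for transcription and mRNA processing of clustered histones had the 3 active features in both replicates, against 45% of all genes. Sympk, which encodes a scaffold of the mRNA cleavage machinery, also had H3K27me3 peaks with folds of 3.61 and 3.08. Only the folds of these 2 peaks were taken, and the H3K27me3 lists have no q-value limit. Npat had ATAC-seq folds of 26.4 and 20.6 and H3K4me3 folds of 35.1 and 27, and Slbp had H3K27ac folds of 32.6 and 27.6. Their median H3K4me3 folds were 32.8 and 25.6, against 17.6 and 11.2 over the called members and 23.9 and 17.6 over all genes with a peak. Of 11 replacement histone genes, which lie outside the clusters and are expressed independently of DNA synthesis for the most part, 8 had all 3 features, with median H3K4me3 folds of 34.6 and 22.9. The exceptions were H2afx, without a listed peak, H2afy2, without an H3K27ac peak in either replicate, and H1fx, with an H3K27ac fold of 4.60 in replicate 1 and no peak in replicate 2. Of 13 histone chaperone genes, 12 had all 3, and Asf1b lacked H3K27ac in replicate 2.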

How the data were processed

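Peak lists of 8 libraries, 2 each for ATAC-seq, H3K4me3, H3K27ac and H3K27me3, were analysed. According to the study's methods and the submitters' processing notes, reads were trimmed (Trim Galore 0.6.10) and aligned to mm10 (BWA 0.7.17-r1188), reads of low mapping quality and duplicates were removed (SAMtools 1.5), ENCODE blacklisted regions were removed (bedtools), Tn5 offsets were corrected for ATAC-seq (deepTools 3.5.5), and peaks were called with MACS2 2.2.6. The deposited lists give for each peak a score, a fold enrichment at the summit, and the −log10 p-value and −log10 q-value. Peaks were called by library, not on pooled replicates, and the H3K27me3 lists have no q-value limit, with a lowest −log10 q of 0 and 0.0295. Depth is unknown, so no interval from counts was computed.

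Peaks were joined to GENCODE M21 start sites on 21 assembled chromosomes with a window of 1 kb either side and a minimum overlap of 1 bp, using Python 3.11.15, numpy 2.4.6, pandas 2.3.3, scipy 1.17.1, numba 0.67.0 and matplotlib 3.10.9. The join was tested on simulated data. Proteins were compared by translating annotated coding sequences of the mm10 reference, and unique words were counted in the same genome. Samples were grouped by the feature in their titles, and no condition was compared, so no test was run. Members named with full values were the 3 with the highest fold of each feature by the lower replicate, those without a peak of an active feature, with H3K27me3, or outside chromosome 13, and the germ-line and polyadenylated members. Hist1h1a, Hist1h3e, Hist1h4c, Hist1h4j, Hist1h2af and Hist1h4i, the genes with a distant coding start, and genes named for shared peaks were chosen after their values were seen. The members and gene lists were chosen with earlier results of these data known. Alternatives changed the window, the q-value limit, the overlap rule, the start site used, the replicates and the span of the cluster. Pseudogenes that match the symbols were not counted as members, and the other samples of the series were not used here.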

Additional observations from a re-analysis of the deposited data

How the results depend on the processing

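Of 70 alternative values, 60 stayed within the limits set for a change and 10 did not. Counts were judged by a fixed ratio to the main value, and coverage by the SD of the 2 libraries. Leaving out 1 of 2 libraries can never move coverage beyond that SD. Those coverage values were therefore bound to stay within the limit and say nothing on stability. The single H3K27me3 call fell to 0 members with a window of 500 bp, with −log10 q of at least 5, with q of at most 0.05, and with the summit required inside the window. ATAC-seq coverage of the chromosome 13 cluster moved to 1.22% and H3K27me3 coverage to 0.0107% with −log10 q of at least 5. Within the 4 blocks of neighbouring members (365 kb), coverage was 4.44% for ATAC-seq, 13.3% for H3K4me3, 10.2% for H3K27ac and 0% for H3K27me3, since the long spaces between blocks are left out. With 1 replicate left out, the members called ranged from 39 to 41 for ATAC-seq, 39 to 41 for H3K4me3, 36 to 37 for H3K27ac, 1 to 1 for H3K27me3 and 36 to 37 for all 3 active features, and coverage ranged from 1.23% to 1.28%, 3.2% to 4.13%, 1.83% to 2.37% and 0.254% to 0.508% for ATAC-seq, H3K4me3, H3K27ac and H3K27me3. Across all alternatives the count with all 3 active features ran from 27 to 38. The 27 came with the summit required inside the window, where H3K4me3 was called at 30 members. No share over all genes is given under that rule. No paired analysis was possible because the results come from no test. The depth behind each list is unknown, so a gene without a peak is not shown to lack the feature.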

Other observations

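Pseudogenes among the clusters also had promoter peaks. Hist1h2aj, next to Hist1h2bm, had ATAC-seq folds of 15.7 and 13.3, H3K4me3 folds of 11.2 and 8.08 and H3K27ac folds of 10.3 and 10.7, the same peaks as those of Hist1h2bm. Hist3h2bb-ps shared those of Hist3h2a, with ATAC-seq folds of 15.3 and 11.3. Hist1h2al, at base 51202727 of chromosome 13 and far from the cluster, had ATAC-seq folds of 11.2 and 6.26 and H3K4me3 folds of 4.85 and 3.81 without an H3K27ac peak.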
